A study of Mus musculus with 2 samples.

Results

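A population of tumor macrophages marked by Clec5a, Fcgr4 and Gpr84 was examined in MC38 tumors with and without local irradiation (IR). Its members were chosen by their unique molecular identifiers (UMIs, each counting 1 captured RNA molecule). Barcodes with at least 2000 UMIs, at most 25% mitochondrial UMIs and no Cd3d or Cd3g UMI were taken as macrophages when C1qa, C1qb and C1qc together had at least 3 UMIs and more than Ly6c2, Ccr2 and Chil3 together. Cycling cells, cells with resident-type genes (Lyve1, Folr2, Cd209f, Cbr2), cells with Dcstamp, Ccl17 or Tnip3, nonclassical monocytes and Cd209a dendritic cells were set aside. Of the remaining C1q macrophages, the cells with at least 5 UMIs of Clec5a, Gpr84 and Fcgr4 together formed the population, called here the gated macrophages. They numbered 143 in the non-irradiated (Control) library and 143 in the IR library, or 286 of the 7408 barcodes that passed the UMI and mitochondrial limits. Since the gate read these values, the levels of its genes in the gated macrophages are given as a description.

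The experiment asked how local radiotherapy changes the immune cells of the tumor. The tumors came from MC38, a carcinoma line of the mouse colon, injected subcutaneously into WT mice, and received a single dose of 20 Gy or a sham treatment. Live CD45+ cells of 4 pooled tumors per treatment were collected 4 days later and made into 1 droplet-based 3′ library each. Because the tumors were pooled and each treatment had 1 library, no replicate test was possible, mouse-to-mouse variation could not be measured, and treatment and library cannot be told apart. The cell type given in the labels names a CD11b+Ly6Chi sort, whereas the study's methods describe CD45+ cells. In addition, 284 Control and 309 IR barcodes had more than 1 UMI of Cd3d and Cd3g together and no C1q UMI. These barcodes are the T cells read below. For both reasons the libraries were treated as CD45+ cells. All intervals below are 95% intervals, exact except for the ratios of shares, and cover counting error only.

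Clec5a is a lectin-like receptor of myeloid cells that signals through the adapters Tyrobp and Hcst. Fcgr4 is an activating receptor for the Fc part of mouse IgG and signals through Fcer1g. Gpr84 is a G protein-coupled receptor for medium-chain fatty acids that is induced in macrophages by bacterial products and cytokines. Cxcl9 is a chemokine that attracts CXCR3+ T cells and is a classical target of interferon-gamma, Cfb is factor B of the alternative complement pathway, and Clec4n (Dectin-2) is a receptor for fungal mannans. Interferons act on macrophages through STAT proteins and interferon regulatory factors, which bind an interferon-stimulated response element (ISRE) or a gamma-activated site in target promoters, whereas cytokine and chemokine genes are often driven by NF-kB.

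Parts of 4 promoters are shown because they carry the element through which many interferon-induced genes are known to be switched on. The letters searched for the ISRE were GAAA, NN and GAAA in a row, for the gamma-activated site TTC, NNN and GAA, and for the NF-kB site GGGA, NN and TTCC, on both strands, where N is any base. Overlapping matches were counted where they occurred. The windows come from RefSeq on build GRCm38.p6, read 5′ to 3′ on the gene's strand and upstream of the annotated start, with matches in capitals.
Isg15: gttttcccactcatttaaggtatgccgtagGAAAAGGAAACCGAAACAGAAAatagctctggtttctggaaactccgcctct
Ifit3: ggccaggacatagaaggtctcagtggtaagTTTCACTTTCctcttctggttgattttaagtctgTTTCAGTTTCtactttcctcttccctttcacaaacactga
Cxcl10: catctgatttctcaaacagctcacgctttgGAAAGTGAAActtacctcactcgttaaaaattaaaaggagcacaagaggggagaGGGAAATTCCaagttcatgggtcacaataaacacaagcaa
Fcgr4: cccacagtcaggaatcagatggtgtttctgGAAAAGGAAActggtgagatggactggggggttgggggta
The Isg15 window lies on the minus strand at chr4:156200845-156200926 and holds 3 overlapping ISRE matches. The Ifit3 window, on the plus strand at chr19:34583343-34583446, holds 2 matches read from the opposite strand. In the Cxcl10 window, on the minus strand at chr5:92349009-92349132, the first block in capitals is an ISRE match and the second an NF-kB match. The Fcgr4 window, on the plus strand at chr1:171018823-171018892, holds 1 ISRE match. The corresponding windows of Clec5a, Gpr84, Cxcl9, Irf7 and Slfn4 held no ISRE match to these letters.

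The gated macrophages made up a larger share of the C1q macrophages after IR. Of the C1q macrophages that passed every other step, 143 of 962 (14.9%, 12.7 to 17.3) met the gate in Control and 143 of 312 (45.8%, 40.2 to 51.5) in IR, a ratio of 3.08 (2.54 to 3.74). Over all barcodes past the limits, the shares were 3.37% (2.84 to 3.95) of 4249 and 4.53% (3.83 to 5.31) of 3159, a ratio of 1.35 (1.07 to 1.69). The C1q macrophages that did not meet the gate numbered 819 in Control and 169 in IR, and all C1q macrophages were 22.6% of the Control and 9.88% of the IR barcodes. The rise in the share among C1q macrophages thus came with fewer C1q macrophages outside the gate, while the count of gated cells was the same in both libraries. The ratio was 2.58 (12.7% against 32.7%) when each cell was thinned to 2000 UMIs and 2 UMIs of the 3 genes were required.

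The gate cut through a continuous range of values. At 4 UMIs, just outside the gate, there were 68 Control and 23 IR cells, and at 5 UMIs, just inside it, 44 and 16. Clec5a stood at 233 counts per 1000000 UMIs (CPM) just outside and 182 CPM just inside the gate in Control, and at 169.5 and 253 CPM in IR. Fcgr4 stood at 177 and 283 CPM in Control and at 243 and 212 CPM in IR. Cells with 4 to 6 UMIs numbered 136 in Control and 57 in IR, so the gate score had no gap at the threshold and the gated macrophages are a range of it. Whether they form a cluster by their whole profile was not tested. The gated cells had a median of 7 gate UMIs in Control and 8 in IR, with highest values of 34 and 24.

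**Figure D1:**
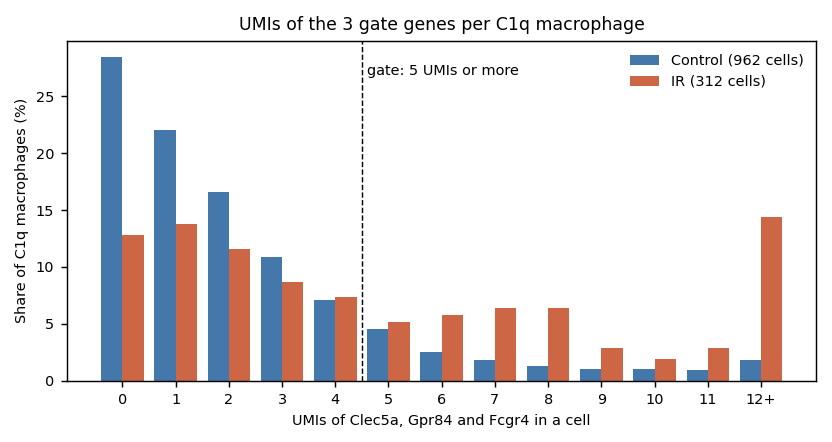
Share of C1q macrophages (y axis, percent) with each number of Clec5a, Gpr84 and Fcgr4 UMIs (x axis), for 962 Control and 312 IR cells, with the gate at 5 UMIs drawn as a dashed line. Above the line lie 14.9% of the Control and 45.8% of the IR cells, and neither library shows a gap at the gate.

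Clec5a and Fcgr4 carried the gate, and Gpr84 contributed little. Clec5a (ENSMUSG00000029915, chr6:40574894-40585821, minus strand) gave 485 of 1138 gate UMIs in Control and 684 of 1432 in IR, and was detected in 128 and 132 of the 143 cells. Fcgr4 (ENSMUSG00000059089, chr1:171018920-171029761, plus strand) gave 568 and 694 UMIs and was detected in 132 and 127 cells. Gpr84 (ENSMUSG00000063234, chr15:103308235-103310612, minus strand) gave 85 and 54 UMIs and was detected in 50 and 37 cells. Clec5a and Fcgr4 were found together in 117 Control and 116 IR cells, and all 3 genes in 40 and 32. A single gene carried every gate UMI in 16 Control and 22 IR cells. These coordinates and those below are on GRCm38, from the GENCODE annotation.

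The level of each marker was then read across the other groups of cells. Here and below, values given as a pair are those of Control and then of IR unless stated otherwise. Clec5a stood at 285 CPM (260 to 312) in gated macrophages against 92.7 CPM in the other C1q macrophages of Control, and at 379 CPM (351 to 409) against 105 CPM in IR. It also reached 123 and 233 CPM in the macrophages with Dcstamp, Ccl17 or Tnip3, and 136 and 212 CPM in Ly6c2 monocytes, of Control and IR respectively. The 83 neutrophils of IR held 223 CPM, and the T cells, which do not make the receptor, 12.7 CPM in Control and 61.5 CPM in IR. With every cell thinned to 2000 UMIs, Clec5a was detected in 37.8% of gated cells in Control and 60.1% in IR, against 2.1% and 7.8% of T cells. Those T cell values were read as a background that free RNA or droplets with more than 1 cell could both give, and the part of each was not tested. The background was higher in IR.

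Fcgr4 stood at 334 CPM (307 to 362) in gated macrophages of Control and at 385 CPM in those of IR, against 83.5 and 122 CPM in the other C1q macrophages. Outside the gate the next levels in IR were those of the IR neutrophils (238 CPM) and the Lyve1 and Folr2 macrophages (220.2 CPM, 148 CPM in Control). Gpr84 stood at 49.9 CPM (39.9 to 61.8) and 29.9 CPM (22.5 to 39.0) in gated macrophages, against 8.41 and 7.30 CPM in the other C1q macrophages. The Dcstamp group held 24.3 and 27.5 CPM of Gpr84, which in IR did not differ from the gated level beyond the counting error.

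The 3 markers that the gate did not use also stood above the other C1q macrophages in both libraries, given here as a description of the gated cells. Cxcl9 (ENSMUSG00000029417, chr5:92321347-92328079, minus strand) was at 2093 CPM against 553 CPM in Control and 378 CPM against 189 CPM in IR. Cfb (ENSMUSG00000090231, chr17:34856374-34862518, minus strand) was at 177 CPM against 102 CPM and at 426 CPM against 184 CPM. Clec4n (ENSMUSG00000023349, chr6:123229843-123247021, plus strand) was at 640.5 CPM against 479 CPM and at 1159.8 CPM against 876 CPM. None of these 3 was confined to the gate. In IR, Clec4n reached 1327 CPM and Cxcl9 535 CPM in the Dcstamp macrophages, both above the gated level. Cfb reached 416 CPM in the Lyve1 and Folr2 macrophages of IR. In Control, the Dcstamp macrophages held 1174 CPM of Cxcl9 and 738 CPM of Clec4n, and the Lyve1 and Folr2 macrophages 195 CPM of Cfb.

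**Figure D2:**
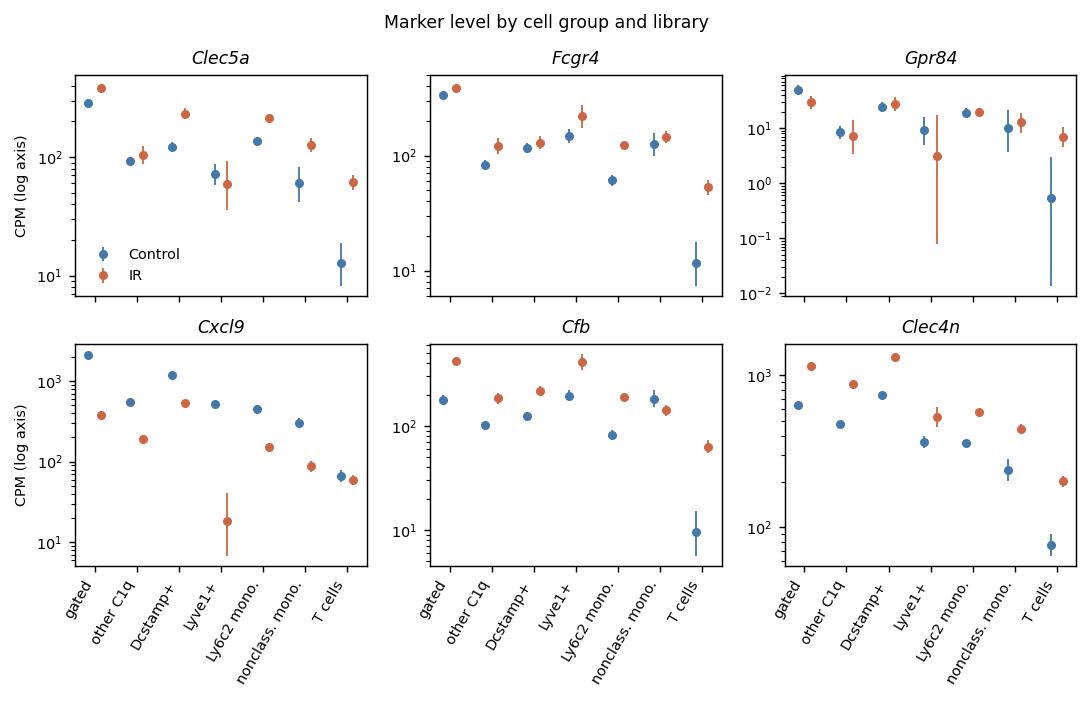
Level of the 6 markers (y axis, CPM on a log scale) in 7 groups of cells (x axis) of Control (blue) and IR (orange), with points for the summed UMIs of a group and bars for the exact Poisson 95% interval. Clec5a, Fcgr4 and Gpr84 are highest in the gated cells, which the gate fixed, and Cxcl9 is lower in IR (378 CPM) than in Control (2093 CPM) there.

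The cells carried the genes of macrophages. Of 10 macrophage identity genes tested, 2 (Fcgr1 and Cd14) were higher in IR by the call defined below and none was lower. Over all genes tested, the shares were 4.97% higher and 3.5% lower. Lyz2, the lysozyme of myeloid cells, was at 11353 and 10361 CPM, Ctss, a lysosomal protease, at 3560.1 and 4216 CPM, Csf1r, the receptor for the macrophage growth factor, at 506 and 396 CPM, and Adgre1 (F4/80) at 137 and 117 CPM, none of them past the call defined below. Depth was alike, with a median of 11428 UMIs (range 3152 to 26054) in Control and 11381 UMIs (range 2061 to 33212) in IR, and summed totals of 1701906 and 1804671 UMIs. The other C1q macrophages were shallower, at medians of 6764 and 6326 UMIs. The mitochondrial share had a median of 5.06% in Control and 3.20% in IR. No barcode of a gated cell occurred in both libraries.

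RNA of neutrophils and NK cells was higher in the gated cells of IR. The 8 neutrophil markers summed to 45.8 CPM in Control, with Retnlg, Cxcr2 and Mmp9 at 0, and to 1943 CPM in IR, with all 8 detected, and the other C1q macrophages showed 86.8 and 1899 CPM. In IR, 5 cells held 79.6% of these neutrophil UMIs. The 7 NK cell markers summed to 94.6 and 525 CPM, the 5 T cell markers to 20.0 and 10.5 CPM, the 6 B cell markers to 43.5 and 51.0 CPM, and the 6 dendritic cell markers to 10.6 and 13.9 CPM. The 8 tumor and stromal markers summed to 105 and 49.3 CPM with Krt8, Krt18 and Krt20 at 0 in both libraries, and the 5 mast cell markers to 0 and 5.54 CPM. Leaving out the 4 Control and 22 IR cells with at least 10 UMIs of the neutrophil, NK, B or mast cell lists left 139 and 121 cells. The neutrophil and NK genes themselves were used to pick these cells, so their own values after this step are fixed by it in advance. A stricter step left out the 22 Control and 40 IR cells with at least 2 UMIs of neutrophil, T, NK, B or tumor and stromal genes. The stricter step was planned and the step at 10 UMIs was not. Below, cells carrying RNA of another lineage are those of the step at 10 UMIs. Doublet scores and free RNA were varied among the alternatives. Beyond these steps, the part of these RNAs in the other results was not tested.

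IR was compared with Control over the 8344 genes that had at least 20 UMIs in the gated cells of both libraries together, the gate's genes set aside. A gene was called higher or lower where the CPM plus 10 differed by at least 1.5-fold and the Poisson intervals did not overlap. By this rule 415 genes (4.97%) were higher and 292 (3.5%) lower in IR. The median log2 ratio over all genes was -0.03. With the stricter step at 2 UMIs, 324 were higher and 260 lower. Without the cells carrying RNA of another lineage, 322 were higher and 275 lower. With the same step the log2 ratio moved from 2.58 to 2.81 for Isg15, from 2.78 to 2.55 for Plac8, from -2.44 to -2.24 for Cxcl9, from -1.36 to -1.15 for Apoe, from -0.93 to -0.82 for H2-Ab1 and from 1.07 to 1.15 for Spp1, and each kept its call.

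The list with the most genes called was the type I interferon response. Of 19 genes tested, 18 were higher in IR and none was lower, with a median log2 ratio of 1.95. Isg15 (chr4:156199424-156200818, minus strand), a ubiquitin-like protein that is attached to other proteins during an antiviral response, was at 145 CPM (127 to 164) in Control against 912 CPM (869 to 957) in IR. Irf7 (chr7:141262706-141266481, minus strand), the transcription factor that amplifies interferon production, was at 77.6 CPM (64.9 to 92.0) and 631 CPM (594 to 668). Slfn4, a myeloid interferon-induced gene, had 12 UMIs (7.05 CPM) in Control and 269 UMIs (149 CPM) in IR. The Control and IR intervals of none of these 3 genes overlapped.

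Further members with the same direction were Ifit3 (21.2 and 187 CPM), which binds other interferon-induced RNA-sensing proteins, Rsad2 (31.1 and 213 CPM), which makes a chain-terminating nucleotide, Oasl2 (43.5 and 197 CPM), of the oligoadenylate synthetase family, and Zbp1 (98.7 and 295 CPM), a sensor of Z-form nucleic acids. The other C1q macrophages showed the list as well, where 17 of 18 list genes tested were higher in IR beside 5.03% of 9801 genes, with a median of 1.54. Without the cells carrying RNA of another lineage, the median in gated cells was 1.97, and with the stricter step it was 1.81.

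The difference was spread over many gated cells. With every cell thinned to 2000 UMIs, Isg15 was detected in 12.6% of the gated cells of Control and 53.8% of those of IR, and no cell was shallower than this depth. Without thinning, 57 and 121 of the 143 cells held an Isg15 UMI. The share of T cells with an Isg15 UMI, at the same thinned depth, was 10.9% and 35.3%, and T cells also answer to interferon. For Irf7 the shares were 12.6% and 61.5% in gated cells (49 and 136 cells unthinned) and 7.7% and 31.4% in T cells. Before thinning, the median depth of the T cells was 5393.5 UMIs in Control and 8242 UMIs in IR.

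The ISRE letters were more frequent in the promoters of these genes, as a description of the sequence alone. They were found in 3.99% of the 27025 RefSeq promoters searched (250 bases before to 50 after the start) and in 4.28% of the 6749 tested genes with a promoter. Among the genes higher in IR they were found in 57 of 314 (18.2%), and among those lower in IR in 5 of 224 (2.23%). Of the 15 type I interferon genes with a promoter, 8 (53.3%) held a match, Isg15 and Ifit3 among them. Irf7 and Slfn4, which were among the genes with the highest ratios, held none. The NF-kB letters were found in 1.63% of all promoters and in 3.82% of those of genes higher in IR.

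Genes of the interferon-gamma response were split. Of 18 tested, 8 were higher and 2 lower in IR, with a median log2 ratio of 0.49. Cxcl9 was lower, at 2093 CPM (2025 to 2163) in Control against 378 CPM (351 to 408) in IR. Serpina3g, a serine protease inhibitor, was also lower, at 105 and 35.5 CPM. Cxcl10, which binds the same receptor as Cxcl9, was higher, at 348 CPM (321 to 378) and 827 CPM (785 to 870). Cxcl9 and Cxcl10 thus had opposite directions at this gate. The Cxcl10 call was lost at a gate of at least 8 UMIs and with the thinned gate, where its log2 ratio fell from 1.22 to 0.35, whereas Cxcl9 kept its call. Cd274 (PD-L1) was at 85.2 and 185 CPM, Socs1, a feedback inhibitor of cytokine signaling, at 78.7 and 169 CPM, and Irgm1, an immunity-related GTPase, at 66.4 and 156 CPM, all higher in IR. Gbp2, a guanylate-binding protein, was at 474 and 379 CPM and was not called. In the thinned cells, Cxcl9 was detected in 51.7% of gated cells in Control and 20.3% in IR (100 and 57 cells unthinned), against 3.5% and 2.9% of T cells. In gated cells led by Clec5a the median of the list was 0.070.

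**Figure D3:**
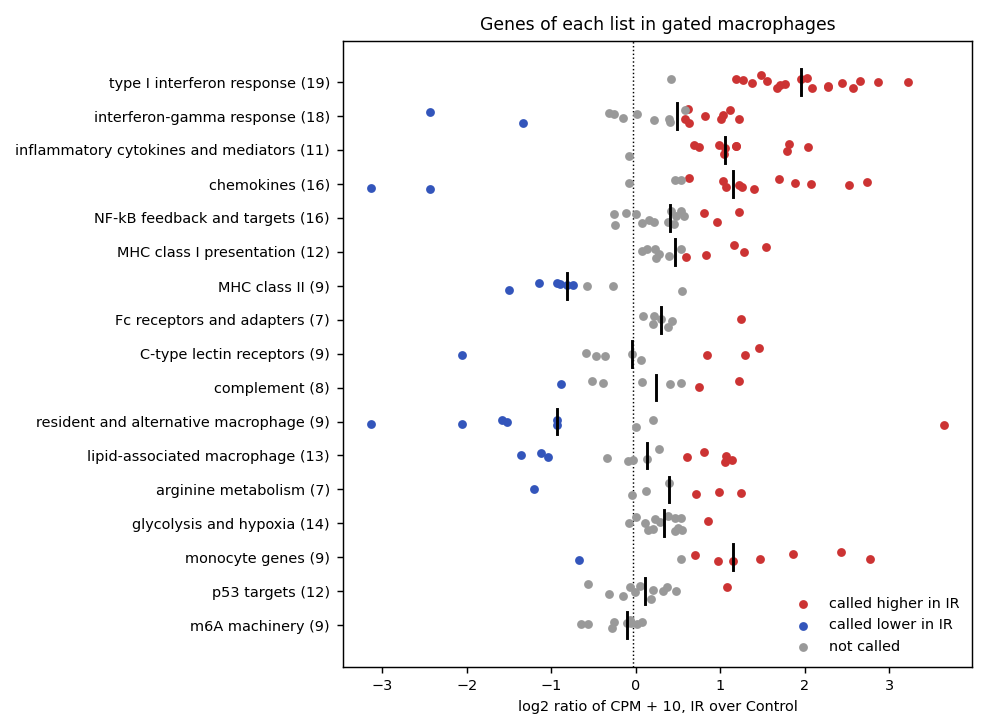
Log2 ratio of CPM plus 10, IR over Control, in gated macrophages (x axis) for the tested genes of each list (rows, number of genes in brackets), with points colored by call, black bars for list medians and a dotted line for the median of all genes at -0.03. The type I interferon list sits furthest to the right among the interferon lists (median 1.95), and the MHC class II list to the left (median -0.81).

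Chemokine genes were mostly higher after IR. Of 16 tested, 11 were higher and 2 (Ccl8 and Cxcl9) lower, with a median log2 ratio of 1.15. Ccl2, which attracts CCR2+ monocytes, was at 497 CPM (464 to 532) in Control against 1637 CPM (1579 to 1698) in IR. Ccl3 and Ccl4, which attract monocytes and T cells, were at 69.3 and 448 CPM and at 185 and 806 CPM. Without the cells carrying RNA of another lineage, the log2 ratio of Ccl3 was 1.85 in place of 2.53. Cxcl2 and Cxcl3, which attract neutrophils through CXCR2, were at 1300.3 and 3111 CPM and at 114 and 447 CPM. In Control, 54.1% of the Cxcl3 UMIs and 35.0% of the Ccl4 UMIs came from 1 cell. Ccl8, a chemokine of resident macrophages, was at 131 CPM in Control and 6.10 CPM in IR.

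Cytokines and inflammatory mediators were higher in 10 of 11 cases, with none lower and a median log2 ratio of 1.06. Il1b, the secreted pyrogenic cytokine, was at 926 CPM (881 to 973) in Control against 1925 CPM (1862 to 1990.1) in IR, and Il1a at 19.4 and 111 CPM. Il1rn, which blocks the receptor of both, was higher as well, at 230.3 and 492 CPM. Acod1, which makes itaconate, was at 62.3 and 239.9 CPM. Tnf was at 68.7 and 169 CPM, Osm, of the interleukin-6 family, at 104 and 249.9 CPM, and Nos2, the inducible nitric oxide synthase, at 57.0 and 123 CPM. Saa3, an acute-phase protein, did not pass the call at 8.81 and 7.76 CPM. Il1b was detected in 39.9% of thinned gated cells in Control and 59.4% in IR (80 and 109 cells unthinned), against 12.7% and 27.8% of T cells.

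Feedback genes and targets of NF-kB differed less. Of 16 tested, 3 were higher and none lower, with a median log2 ratio of 0.40. Nfkbia, the inhibitor that NF-kB itself induces, was at 334 CPM (307 to 362) and 789.6 CPM (749 to 832). Nfkbiz, an atypical inhibitor, was at 88.1 and 181 CPM and Traf1, a signaling adapter, at 38.2 and 74.3 CPM. The subunit genes Nfkb1 (156 and 157 CPM), Rel (81.1 and 67.0 CPM) and Relb (25.9 and 29.9 CPM) were not called. Without the cells carrying RNA of another lineage, the median of the list was 0.14 and the log2 ratio of Nfkbia 0.91 in place of 1.22. With the stricter step the median was 0.16 and Nfkbia 0.78. In the other C1q macrophages 6 of the 16 genes were higher and the median was 0.46.

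The families of Clec5a and Fcgr4 were read beside all genes tested, of which 4.97% were higher and 3.5% lower in IR. Of 9 C-type lectin genes tested, 3 (Clec4e or Mincle, Clec4d and Clec4n) were higher and 1 (Mgl2, a galactose-binding lectin) was lower, with a median log2 ratio of -0.047. Clec4n was at 640.5 CPM (603 to 680) in Control against 1159.8 CPM (1111 to 1211) in IR, Clec4e at 106 and 307 CPM, and Clec4d at 155 and 395 CPM. Of 7 Fc receptor and adapter genes tested, 1 was higher, Fcgr1, the high-affinity IgG receptor, at 302 CPM (276 to 329) and 733 CPM (694 to 773). Fcgr2b, the inhibitory receptor, was at 874 and 925 CPM, Fcer1g at 3339.8 and 4365 CPM, Tyrobp at 2474 and 3043 CPM and Hcst at 52.3 and 61.5 CPM, all uncalled. Clec4n was detected in 50.3% and 74.8% of thinned gated cells (133 and 138 cells unthinned), against 5.6% and 14.9% of T cells.

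In the complement list, 2 of 8 genes tested were higher in IR. Cfb was at 177 CPM (158 to 199) in Control against 426 CPM (396 to 457) in IR and was detected in 28.7% and 50.3% of thinned gated cells (87 and 122 cells unthinned), against 0.7% and 5.8% of T cells. C4b, of the classical pathway, had 3.53 and 12.7 CPM. C3 was at 231 and 159 CPM and was not called. In the list around Gpr84 and other G protein-coupled receptors, 3 of 12 genes were higher, the formyl peptide receptors Fpr1 (2.94 and 23.8 CPM) and Fpr2 (24.7 and 67.6 CPM) and Hcar2 (43.5 and 106 CPM), a receptor for hydroxybutyrate. The G protein subunit genes Gnai2 (1177 and 1205 CPM) and Gnb1 (303 and 309.8 CPM) were not called.

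Antigen presentation genes moved in opposite directions for the MHC classes. Of 9 MHC class II genes, 6 were lower and none higher, with a median log2 ratio of -0.81. H2-Ab1, a beta chain, was at 4979.7 CPM (4874 to 5087) in Control against 2609 CPM (2535 to 2684) in IR. Cd74, the invariant chain, was at 15150.1 and 9021 CPM. Ciita, the factor that switches on this gene set, was at 73.4 CPM (61.1 to 87.5) and 19.4 CPM (13.5 to 27.0). H2-Eb1 was detected in 92.3% of thinned gated cells in Control and 58.7% in IR (136 and 110 cells unthinned), against 21.1% and 13.9% of T cells. In contrast, 5 of 12 MHC class I genes were higher and none lower, with a median of 0.46. H2-D1 was at 1888 CPM (1824 to 1955) and 3372 CPM (3288 to 3458). H2-Q4, H2-Q6 and H2-Q7, which were also higher, have near-identical copies whose reads the counting could divide, so their levels are uncertain.

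Genes of resident and alternatively activated macrophages were lower. Of 9 tested, 6 were lower and 1 (Retnla) higher, with a median log2 ratio of -0.93. Mrc1, the mannose receptor, was at 307 CPM (281 to 334) in Control against 99.7 CPM (85.7 to 115) in IR, Selenop, a secreted selenium carrier, at 191 and 57.1 CPM, and Mgl2 at 299 and 64.3 CPM. Retnla was the exception by 1 cell, which held 632 of its 633 UMIs in IR. Maf, a transcription factor of tissue macrophages, was at 140.4 and 141 CPM and was not called. Mrc1 was detected in 37.1% and 14.0% of thinned gated cells (104 and 61 cells unthinned), against 4.2% and 4.5% of T cells.

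Monocyte genes that the gate did not use were higher in 7 of 9 cases and lower in 1, with a median log2 ratio of 1.16. Plac8 was at 155 CPM (136 to 174) in Control against 1119 CPM (1070.5 to 1169) in IR, and Ms4a4c at 102 and 596 CPM. Thbs1 (thrombospondin) was at 109 and 422 CPM, and Fn1 (fibronectin) was lower at 2300.4 and 1436 CPM. Ly6c2, which the gate compared with C1q, was at 62.9 CPM in Control and 709 CPM in IR. Without the cells carrying RNA of another lineage, the median of the list was 0.72, and with the stricter step it was 0.94. Plac8 UMIs were found in 32 Control and 101 IR cells. In thinned cells the shares were 14.0% and 49.7%, against 26.8% and 44.3% of T cells, which express Plac8 themselves.

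Lipid-associated and matrix genes did not share a direction. Of 13 lipid-associated genes, 5 were higher and 3 lower, with a median log2 ratio of 0.14. Spp1 (osteopontin) was higher at 2505 CPM (2431 to 2582) in Control against 5259 CPM (5153 to 5365) in IR, and Plin2, which coats lipid droplets, at 155 and 334 CPM. Apoe, the lipid-carrying apolipoprotein, was lower at 3814 CPM (3722 to 3908) and 1482 CPM (1426 to 1539), as were Cd63 (634 and 285 CPM) and Fabp5 (538 and 258 CPM). Trem2, a lipid-sensing receptor, was at 444 and 349 CPM and was not called. Among 10 matrix protease genes, 4 were higher, including Plaur (295 and 672 CPM), the urokinase receptor, and 1, Timp2 (212 and 122 CPM), was lower. Of these 4, Mmp9 is also on the neutrophil list and had no UMI in the gated cells of Control. The median log2 ratio of the matrix list was 0.50. Without the cells carrying RNA of another lineage it was 0.35, and with the stricter step 0.14. In arginine metabolism 3 of 7 genes were higher and 1 lower. Arg1, which marks suppressive myeloid cells, was at 3544 CPM (3455 to 3635) and 4664 CPM (4565 to 4765), short of the call.

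Few metabolic, DNA damage and RNA methylation genes were called, beside 4.97% higher and 3.5% lower over all genes tested. At those shares, lists this short would hold about as few calls, so the counts are not particular to these genes. Of 14 glycolysis and hypoxia genes, 1 was higher, Hilpda (105 and 198 CPM), a hypoxia-induced lipid droplet protein. Of 12 targets of p53, 1 was higher, Btg2 (105 and 232 CPM), while Cdkn1a (p21) was at 329 and 462 CPM and Mdm2 at 61.7 and 82.6 CPM, uncalled. Of 11 immediate early and heat shock genes, 1 was higher, Egr1 (80.5 and 131 CPM), and Fos was at 553 and 513 CPM. None of 9 genes that write, erase or read N6-methyladenosine was called in either direction. Ythdf2 (chr4:132184912-132212303, minus strand), the reader that shortens the life of methylated RNA, had 95 UMIs (55.8 CPM, 45.2 to 68.2) in Control and 62 UMIs (34.4 CPM, 26.3 to 44.0) in IR. These intervals did not overlap, but the ratio was under 1.5-fold on the CPM plus 10 scale, with a log2 ratio of -0.57. Ythdf2 was not called in 17 of 22 alternative settings and was called lower in IR in the remaining ones. Its log2 ratio ran from -0.81 to -0.39 over the 22 settings.

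The 12 genes with the highest ratio at 100 CPM or more were S100a9, S100a8, G0s2, Retnla, Cstdc4, Slfn4, Gzmb, Irf7, Lyz1, Plac8, Ccl24 and Ifit3, with log2 ratios from 6.32 to 2.66. Several rested on few cells. S100a9, a subunit of calprotectin with S100a8, had 1 UMI in Control and 1506 in IR, a log2 ratio of CPM between 7.99 and 15.78. Together with S100a8, its UMIs in IR numbered 2718, of which 5 cells held 2387 (87.8%), and 93 of the 143 cells had none. Likewise 1 cell held 240 of 320 Lyz1 UMIs, 188 of 261 Gzmb UMIs and 223 of 370 Ccl24 UMIs in IR. Without the cells carrying RNA of another lineage, the log2 ratios were 0.56 for S100a9, 0.20 for S100a8, 0.013 for G0s2 and 0.051 for Gzmb, none called, but these 4 genes were among those by which the cells were picked, so this is no test of them. Cstdc4, which was not used to pick the cells, had a log2 ratio of 0.97 after the same step, in place of 3.30. With the stricter step at 2 UMIs it was 0.12 and not called. Of the 415 genes called higher, 18 had over 50% of their UMIs in 1 cell, against 2 of the 292 called lower. Slfn4, Irf7, Plac8 and Ifit3 kept their call in each of 22 alternative settings. So did Ccl24, with log2 ratios from 1.20 to 3.94, although 1 cell held most of its UMIs in IR.

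The 12 genes with the lowest ratio were Ccl8, Cx3cr1, Cxcl9, Mgl2, Cyp51, Selenop, Mrc1, Gatm, Apoe, Serpina3g, Fdps and Slc7a2, with log2 ratios from -3.13 to -1.21, and each of them kept its call in all 22 alternatives. Cx3cr1, the fractalkine receptor, was at 191 CPM (171 to 213) in Control against 23.8 CPM (17.2 to 32.1) in IR and was detected in 28.7% and 4.9% of thinned gated cells (77 and 18 cells unthinned), against 5.6% and 2.6% of T cells. Gatm, an enzyme of creatine synthesis, was at 481 and 163 CPM, and Slc7a2, an arginine transporter, at 294 and 121 CPM. Cyp51 (107 and 23.3 CPM) and Fdps (206 and 79.2 CPM) belong to cholesterol synthesis. In Control these genes were detected in 30 (Ccl8) to 127 (Gatm) of the 143 cells, and the cell with the most UMIs of a gene held at most 16.6% of them.

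**Figure D4:**
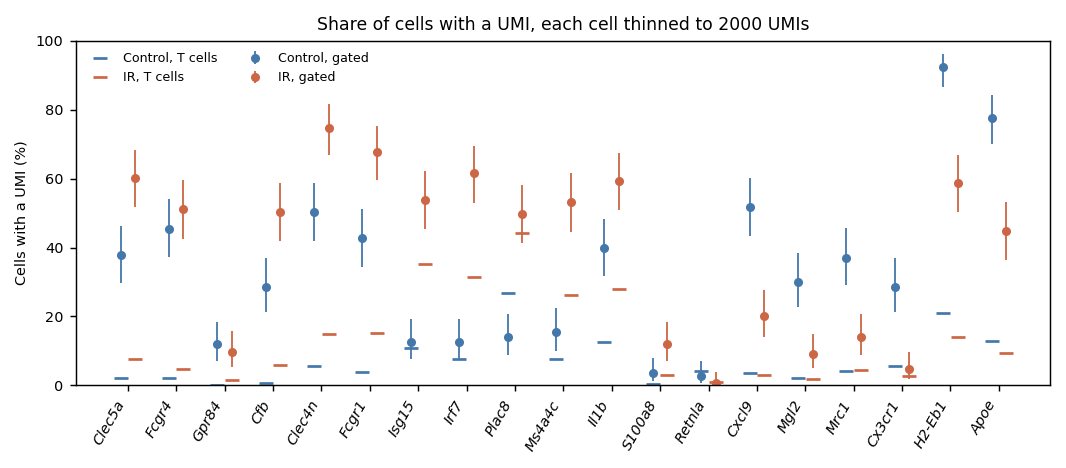
Share of gated macrophages with at least 1 UMI (y axis, percent) for selected genes (x axis) after every cell was thinned to 2000 UMIs, with points and exact binomial 95% intervals for Control (blue) and IR (orange) and dashes for T cells of the same library. Irf7 goes from 12.6% to 61.5% and Cxcl9 from 51.7% to 20.3%, while S100a8 is found in 3.5% and 11.9% of cells despite its large ratio.

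The gated cells were next described beside the other C1q macrophages of the same library, a contrast the gate itself set up and that was therefore not tested. At least 1.5-fold in both libraries, 35 genes (0.419% of 8344) were higher and 74 (0.887%) lower in the gated cells. The genes with the largest ratios in both libraries included Ly6a, Cxcl9, Ly6i, Iigp1, Cxcl10, Isg15 and Ms4a4c. Ly6a (Sca-1; chr15:74994877-74998031, minus strand) was at 1030.0 CPM in gated and 456 CPM in other cells of Control and at 2487 and 1079 CPM in IR. Iigp1, an interferon-gamma-induced GTPase, was at 192 against 63.0 CPM and at 159 against 81.9 CPM. Cxcl10 was at 348 against 130.3 CPM and at 827 against 446 CPM, and Ass1, which makes argininosuccinate, at 281 against 122 CPM and 465 against 266 CPM. Of the 24 such genes with a promoter, 11 (45.8%) held the ISRE letters.

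The genes lower in the gated cells included Ccl3, Ccl6, Cd83, Tnfaip3, Klf6 and Fosb. Ccl3 was at 69.3 against 142 CPM in Control and 448 against 907 CPM in IR, and Ccl6, a myeloid chemokine, at 797 against 1531 CPM and 1639 against 2789 CPM. Tnfaip3, which switches off NF-kB signaling, was at 84.0 against 154 CPM and 130.2 against 260.2 CPM. Cd83, an activation marker, was at 73.4 against 139 CPM and 53.2 against 148 CPM. The transcription factors Klf6 (358 against 633 CPM in Control, 418 against 726 CPM in IR) and Fosb (293 against 506 CPM, 233 against 479 CPM) showed the same order. The gated cells thus held more of the interferon-induced chemokines Cxcl9 and Cxcl10 and less of Ccl3 and Ccl6 than their neighbors in each library. NK cell markers summed to 94.6 CPM in gated against 227 CPM in other cells of Control, and to 525 against 1067 CPM in IR. Dendritic cell markers summed to 10.6 against 25.9 CPM in Control and to 13.9 against 268 CPM in IR. This order did not hold for neutrophil, B cell and tumor and stromal markers in IR, or for T cell markers in Control. How far these RNAs set the order of Ccl3, Ccl6 or Cd83 was not tested.

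The effect of IR was set beside that in the other C1q macrophages, which came from the same pair of libraries. The intervals of the IR to Control ratio did not overlap for 120 genes (1.44% of 8324) whose ratio was above that of the other cells and for 129 (1.55%) whose ratio was below it, and the difference itself was not tested over replicates. Pf4, a platelet-type chemokine also made by macrophages, was at 861 and 994 CPM in gated cells and at 906 and 2533 CPM in the others. Apoe was at 3814 and 1482 CPM against 2700.1 and 1833 CPM, and Cd63 at 634 and 285 CPM against 655 and 556 CPM. Cdkn1a was at 329 and 462 CPM against 338 and 653 CPM, and 6 of 12 p53 targets were called higher in the other cells. Thbs1 was at 109 and 422 CPM in gated cells and at 281 and 537 CPM in the others.

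For the other lists, the median log2 ratios in gated and other cells were 1.06 and 1.08 for the inflammatory list, 1.15 and 0.96 for the chemokines, -0.81 and -0.82 for MHC class II, 0.46 and 0.57 for MHC class I, -0.93 and -0.73 for the resident list and 1.16 and 0.91 for the monocyte list.

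**Figure D5:**
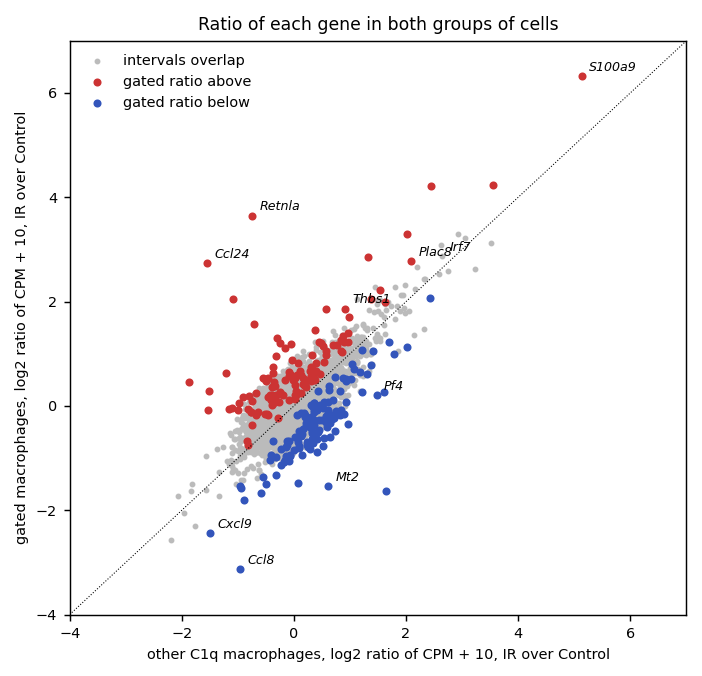
Log2 ratio of CPM plus 10, IR over Control, in gated macrophages (y axis) and in the other C1q macrophages (x axis), 1 point per gene, with genes whose 2 ratio intervals do not overlap in red (120, gated ratio above) and blue (129, gated ratio below). Most genes lie near the dotted line of equal ratio, Pf4 lies below it, and Retnla and Ccl24, which 1 cell dominated, lie above it.

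Within the gated macrophages, cells led by Clec5a differed from cells led by Fcgr4. Clec5a had the most gate UMIs in 60 Control and 69 IR cells, Fcgr4 in 71 and 60, and Gpr84 in 3 and 1, with ties in 9 and 13. Spp1 was at 3709 CPM in Clec5a-led and 1123 CPM in Fcgr4-led cells of Control and at 7553 and 2319 CPM in IR. Mmp12, the macrophage elastase, followed the same order, at 815 and 273 CPM and at 902 and 242 CPM. Clec4n was at 811 and 468 CPM and at 1405 and 891 CPM.

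The reverse order held for Apoe, at 2787 CPM in Clec5a-led and 5204 CPM in Fcgr4-led cells of Control and 587 and 2508 CPM in IR, and for C1qa, a chain of the complement initiator C1q, at 2513 and 3752 CPM and at 1792 and 3071 CPM. Interferon-induced genes were also higher in the Fcgr4-led cells of IR, where Isg15 was at 594 CPM in Clec5a-led and 1240.3 CPM in Fcgr4-led cells, against 139 and 132 CPM in Control. Cxcl10 was at 106 and 516 CPM in Control and 516 and 1141 CPM in IR. The MHC class II gene H2-Ab1 was nearly level between them, at 5135 and 4967 CPM in Control and 2805 and 2545 CPM in IR. The median log2 ratio of the type I interferon list was 1.37 in Clec5a-led and 2.69 in Fcgr4-led cells. These splits used the gate's own genes, so the values are descriptions.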

How the data were processed

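The authors deposited whole-number counts of UMIs per gene and barcode for 2 libraries, Control and IR, as unfiltered matrices of 32285 genes. Per the labels and the study's methods, reads were aligned to mm10 with GENCODE vM23 annotation by Cell Ranger, given as 6.0.1 in the submitters' processing notes and as 4 in the matrix headers. The study's own cell filters and doublet calls were not used here. Totals were 48593879 and 42406461 UMIs, of which the 4249 and 3159 barcodes kept held 40897900.0 and 37468891.

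UMIs were summed over gated cells per library and scaled to CPM of all UMIs of those cells. With 1 library per group, no p-value was computed. Intervals were Poisson for CPM, Clopper-Pearson for shares, conditional binomial for ratios of CPM and an approximate log method for ratios of shares. Genes at Xist, Y-linked, mitochondrial and ribosomal protein loci were left out. Thinning drew 2000 UMIs per cell without replacement, once, with a fixed seed. No doublet caller was applied, except as an alternative by Scrublet scores, whose automatic threshold marked 0 barcodes. The rule for naming genes took those with intervals apart, a level of at least 100 CPM in 1 library and a log2 ratio of at least 1 in size, the 12 largest each way, the analogous 12 each way between gated and other macrophages, the markers, examples from the gene lists, and Ythdf2. Genes whose responses differed between gated and other cells were picked as examples after their values were seen. The members and gene lists were chosen with earlier results of these data known, and the cholesterol list after seeing the values. Positions came from a GENCODE vM21 annotation and promoters from RefSeq, without chromosome 18. Values of some list genes are not reported here. Scripts were tested on simulated data. Analyses used Python 3.11.15, scipy 1.17.1, pandas 2.3.3, scanpy 1.11.5, R 4.3.3 and edgeR 4.0.16, the last for TMM scaling factors only. Alternatives varied the gate, depth, mitochondrial and lineage limits, scaling, free RNA, pseudocount and count minimum.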

Additional observations from a re-analysis of the deposited data

Results flagged for a closer look

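For 6 genes, gated and other C1q macrophages were called in opposite directions under the same contrast, and the difference between them was not tested. Given as log2 ratios of CPM plus 10, IR over Control, Ccl24, a CCR3 ligand, was at 2.73 in gated and -1.54 in other cells, Retnla at 3.65 and -0.75, and the cytotoxic protease Gzmc at 2.05 and -1.08. Xcl1, a chemokine of lymphocytes, was at 1.56 and -0.71. In IR, 1 gated cell held over 50% of the UMIs of each of these 4 genes. The histone gene Hist1h4i was at -1.64 and 1.65 and the metallothionein Mt2 at -1.54 and 0.61. For Hist1h4i, 49 of 77 Control UMIs came from 1 cell, and for Mt2, 19 of 150.

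Barcodes with 10 to 100 UMIs, which are mostly droplets without a cell, held more Clec5a, Cfb and Clec4n RNA in IR than in Control. In IR they held 114 CPM of Clec5a, 119 CPM of Cfb and 405 CPM of Clec4n, against 83.1, 76.1 and 305 CPM in Control. Gpr84 was level (12.7 and 12.6 CPM), the intervals of Fcgr4 overlapped (82.6 and 95.6 CPM), and Cxcl9 was lower in IR (586 and 179 CPM). Isg15 (130 and 634 CPM), Irf7 (70.4 and 346 CPM) and Plac8 (601 and 1721 CPM) were higher in IR. From lineage genes that macrophages lack, the upper estimate of free RNA was 4.26% of the UMIs of gated cells in Control and 11.2% in IR.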

How the results depend on the processing

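No paired analysis was possible because each group held a single library, and for the same reason no replicate could be left out. The ratio of gated shares was 3.08 and became 2.43 at a gate of 4 UMIs, 4.73 at 8 UMIs, 2.50 with 3 UMIs of Clec5a and Gpr84, 1.90 with Clec5a and Fcgr4, 2.48 with Gpr84 and Fcgr4, and 1.35 over all barcodes. It was above 1 in each of these. The 415 genes higher and 292 lower in IR became 465 and 247 with TMM scaling and 321 and 434 with free RNA subtracted. In Clec5a-led cells they were 262 and 163, and with at least 100 UMIs per gene 162 were lower. The type I interferon median was 1.37 in Clec5a-led cells, 2.69 in Fcgr4-led cells and 2.54 with a pseudocount of 1. In Clec5a-led cells the interferon-gamma median was 0.070 and the inflammatory median 1.40, the latter also 1.26 with the thinned gate. The chemokine median was 0.87 at a gate of 8 UMIs, 0.82 with the thinned gate and 0.90 with the stricter C1q limit. The MHC class II median was -0.68 with the thinned gate and -0.69 with Clec5a and Gpr84 alone. The resident median was -1.23 at 8 UMIs, -1.39 thinned, -1.53 in cells of 5000 to 20000 UMIs, -1.22 with Gpr84 and Fcgr4, -1.60 in Fcgr4-led cells, -1.61 with a pseudocount of 1, -1.23 at 100 UMIs per gene and -1.55 without the highest cell of each gene. Retnla reversed to -0.057 at 8 UMIs, -3.02 thinned, -0.24 in cells of 5000 to 20000 UMIs, -0.44 with Clec5a and Gpr84, -0.18 in Clec5a-led cells and -0.42 without its highest cell. Lyz1 reversed to -0.99 at 8 UMIs, -0.57 with Clec5a and Gpr84 and -0.18 in Clec5a-led cells, and Gzmb to -0.043 without cells holding 2 UMIs of another lineage. The alternatives that took other cells or genes changed these values by construction, and for the rest the cause was not tested. Of 1276 values of named genes under alternatives, 1030 stayed near the main value. Near meant a shift no larger than the distance from the middle to an end of the main log2 ratio interval. That interval is wide for genes with few UMIs in 1 library, such as S100a9.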

Other observations

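Genes of cholesterol metabolism, chosen after their values were seen, were lower in the gated macrophages of IR. Of 16 tested, 13 were lower and none higher, with a median log2 ratio of -0.84, against 11 lower and a median of -0.78 in the other C1q macrophages. Hmgcs1, which commits acetyl groups to the pathway, was at 75.2 CPM in Control against 30.5 CPM in IR. Idi1, an isomerase of the isoprenoid steps, stood at 60.5 and 21.1 CPM.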
